A study of Mus musculus with 2 samples.

Results

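Tcf3 occupancy was examined at 8 genes of the fibroblast growth factor (FGF) system: the ligand genes Fgf4, Fgf5, Fgf8, Fgf15 and Fgf17, and the receptor genes Fgfr1, Fgfr2 and Fgfr3. They were chosen by name, with earlier results of these data known. Every non-control probe whose annotated gene on the array was one of them was used, whatever its value. This gave 8 of the 17029 genes on the arrays, with 244 probes on array 1 and 73 on array 2, of 237195 and 237185 probes in all.

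Chromatin came from feeder-free E14 cells, a mouse embryonic stem (ES) cell line, and no other genotype, treatment or time was compared. Amplified immunoprecipitated DNA (IP) was labelled with Cy5 and set against amplified input DNA labelled with Cy3, hybridised together on each of 2 arrays that carry different promoter probes. Tcf3, a Tcf/Lef transcription factor of the Wnt pathway now named Tcf7l1, is the target given by the titles, while the protocol lists several antibodies without saying which was used on the arrays. Each gene lay on 1 array, with no replicate and no control IP, so no difference could be tested against replicate error, and DNA enrichment offers no check of the cell label by marker expression.

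FGF ligands are secreted proteins that bind receptor tyrosine kinases and pass their signal through the adaptor Frs2, Ras, Raf and Mek to the kinases Erk1 and Erk2. In mouse ES cells, Fgf4 is the main ligand made by the cells themselves, and its signal is known to ready them for differentiation. Fgf5 is a marker of the epiblast after implantation, Fgf8 patterns the gastrulating embryo, and Fgfr2 marks trophectoderm and primitive endoderm in the blastocyst.

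Enrichment was the log2 ratio of IP over input signal at a probe, centred on the median of its array, so that 0 is the level of a typical probe. Because of this centring, a log2 ratio differs by an array-wide constant from the ratio of the printed signals. The value of a gene was its highest set mean, where a set joins a probe to the nearest probe on either side, if no more than 1000 bp away. A probe was called as bound when its set mean and its own or its set's single values lay far in the upper tail of the array's scatter, and a gene was called when any of its probes was. The SD given with a set mean is over the probes of that set and is not a replicate error.

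With all spots, 3 of the 8 genes were called (Fgf4, Fgf5 and Fgfr2), that is 37.5%, against 13.0% of the 16887 genes with a set on the arrays. All 3 lay on array 1, where 22.3% of genes were called, against 3.58% on array 2, which holds Fgf8 and Fgf17. These genes carried 30 to 60 probes each, and among all genes with as many probes 16.2% were called. The sequences below are those of the probes in the called regions of Fgf4 and Fgfr2, the genes that were called under every setting tried, and of the called Fgf5 probe. They are given as the + strand of the array's coordinates, whose build the labels and headers do not name, and capitals mark either the Tcf/Lef letters CTTTGTA or the GC-rich letters CGGCGGC.
Fgf4, upstream region, chr7:141283099-141283158: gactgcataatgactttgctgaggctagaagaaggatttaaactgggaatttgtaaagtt
Fgf4, upstream region, chr7:141283206-141283265: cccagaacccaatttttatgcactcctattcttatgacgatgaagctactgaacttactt
Fgf4, upstream region, chr7:141283317-141283364: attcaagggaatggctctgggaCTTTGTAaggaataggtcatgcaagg
Fgf4, region after the start, chr7:141286821-141286865: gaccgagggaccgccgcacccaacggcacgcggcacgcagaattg
Fgf4, region after the start, chr7:141286974-141287018: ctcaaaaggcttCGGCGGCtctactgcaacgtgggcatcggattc
Fgfr2, chr7:126429786-126429845: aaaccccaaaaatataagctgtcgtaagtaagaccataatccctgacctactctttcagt
Fgfr2, chr7:126430011-126430069: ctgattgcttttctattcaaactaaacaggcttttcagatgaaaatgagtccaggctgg
Fgfr2, chr7:126430221-126430265: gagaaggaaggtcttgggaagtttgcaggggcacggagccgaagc
Fgf5, chr5:97469179-97469223: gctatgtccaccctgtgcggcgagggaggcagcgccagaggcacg

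Fgf4, the ligand that ES cells make, carried 35 probes over chr7:141282107-141289268 on array 1, all of them measured in both channels. It had 2 separate called regions. The upstream region spanned 266 bp (chr7:141283099-141283364) and held 3 called probes. Their IP signals were 3021, 5200 and 4211, against input signals of 814, 1215 and 1177. The corresponding log2 ratios were 2.13, 2.34 and 2.08, so that the 3 neighbours stood at nearly the same height. Their set mean of 2.18 ± 0.14 was a 4.54-fold enrichment over the array's median, and 406 of the 8478 genes of the array with a set (4.79%) reached this value. The third probe of this region holds CTTTGTA, one of the Tcf/Lef letter strings searched.

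The other called region of Fgf4, chr7:141286821-141287018 (198 bp), held 2 called probes. The first had an IP signal of 5964 against an input signal of 1584, and a log2 ratio of 2.15. The second had an IP signal of 6456 against an input signal of 953 and, at 3.00, the highest log2 ratio of the gene, a value reached by 0.352% of the probes of the array. Between both regions the probes lay between -0.44 and 1.26, so the profile had 2 peaks and not a plateau. The 2 regions differed in base composition: mean GC content was 40.3% in the upstream region and 64.4% in the other.

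Fgf5, the ligand of the later epiblast, had 42 probes over chr5:97463871-97471555, of which 14 had a surrogate, the value the software writes where a signal is not above background. Only 1 probe was called, at chr5:97469179-97469223, with an IP signal of 7906 against an input signal of 2542 and a log2 ratio of 1.88. Its left neighbour reached 2.01 (IP 2668, input 784) and its right neighbour 0.63. The gene's highest set mean of 1.50 ± 0.76 therefore rested on probes that differed among themselves, and 31.8% of the genes of the array had one as high. A little further on, log2 ratios of 1.74 and 1.49 extended the raised stretch around the gene's start.

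Fgf8, a ligand of gastrulation and of the midbrain organiser, lay on array 2 with 36 probes, 12 of them surrogates, and was not called with all spots. Its highest single value belonged to the probe at chr19:45639759-45639803, with an IP signal of 11285 against an input signal of 1529. The log2 ratio of 2.91 was reached by 0.127% of the probes of array 2, yet the neighbours stood at 0.96 and -0.74. A high value at a lone probe of this kind does not pass the rule, which reads neighbouring probes together. The gene's highest set with all spots, 1.33 ± 0.17, consisted of 3 surrogates at the edge of its probes, with IP signals of 195, 193 and 217 and input signals of 90.4, 71.7 and 83.9, and is no measured enrichment.
Fgf8, lone high probe, chr19:45639759-45639803: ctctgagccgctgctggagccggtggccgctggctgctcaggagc

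Fgf15, the mouse counterpart of human FGF19 and a gut hormone in the adult, had 37 probes and was not called, with a highest set mean of 0.60 ± 1.01. Its highest measured probe, chr7:141320762-141320806, had an IP signal of 7782 against an input signal of 3285 and a log2 ratio of 1.49, while the other probes of that set stood at -0.50 and 0.81. Fgf17, a relative of Fgf8, was not called either: none of its 37 probes exceeded 0.84, their median was -0.67, and its highest set mean was 0.18 ± 0.33. Of the genes of their arrays, 89.3% had a set mean at least as high as that of Fgf15, and 96.3% one at least as high as that of Fgf17.

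Fgfr2, a receptor, had the highest set mean of the 8 genes. Its 60 probes ran over chr7:126424784-126436959, with 15 surrogates among them. The called region, chr7:126429786-126430265 (480 bp), held 3 probes. Their IP signals were 6930, 13098 and 6758, against input signals of 1325, 1776 and 1543, and their log2 ratios were 2.63, 3.12 and 2.37. The middle probe had the highest IP signal of all 317 probes of these genes. The set mean of 2.71 ± 0.38 was a 6.53-fold enrichment, which 56 of the 8478 genes of the array (0.661%) reached.

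The enrichment at Fgfr2 reached past the called probes. In all, 6 neighbouring probes had log2 ratios of 1 or more, with 1.28 and 1.27 on one side of the called probes and 1.83 on the other. Of the 8582 genes of array 1, 2.46% had a run of such probes as long. A further probe at chr7:126431573-126431617, with an IP signal of 3583, an input signal of 627 and a log2 ratio of 2.75, was not called, since its neighbours stood at 0.29 and 0.59. It is shown here because it is the only Fgfr2 probe with the letters CGGCGGC (in capitals). Another lone probe reached 1.95 at chr7:126435988-126436037.
Fgfr2, probe not called, chr7:126431573-126431617: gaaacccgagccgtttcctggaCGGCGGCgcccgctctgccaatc

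Fgfr1, the receptor that ES cells are known to use most, had 30 probes over chr8:24283047-24290827 and was not called. Its highest probe had an IP signal of 4167 against an input signal of 2333, a log2 ratio of 1.08, and its highest set mean was 0.27 ± 0.80, a value that 97.6% of the genes of array 1 reached. Fgfr3, a receptor best known for its part in bone growth, had 40 probes and was not called. Its highest set, 1.26 ± 0.40, was made of 3 GC-rich probes with log2 ratios of 1.04, 1.73 and 1.02, and 46.9% of the genes of the array reached it. Its highest single probe, chr5:32782079-32782135, stood alone, with an IP signal of 1790, an input signal of 502 and a log2 ratio of 2.08.
Fgfr3, lone high probe, chr5:32782079-32782135: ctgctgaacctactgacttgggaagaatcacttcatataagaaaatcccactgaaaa

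**Figure D1:**
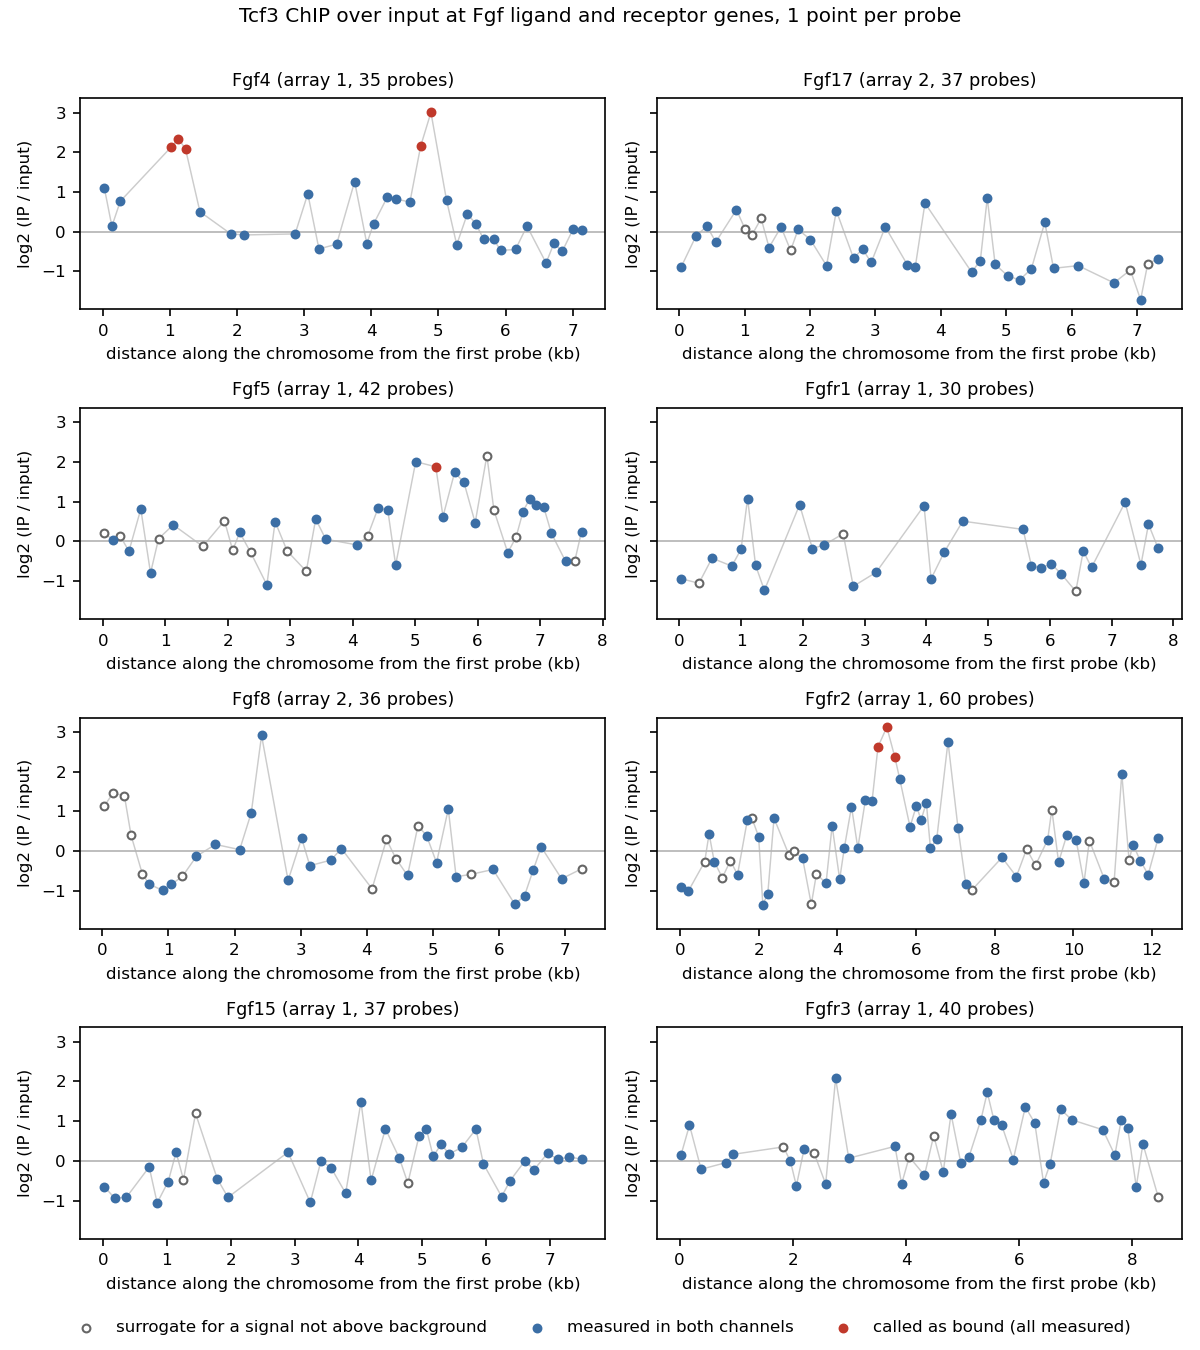
Log2 IP over input for each probe of the 8 genes (y axis, centred on the array's median) against the distance in kb from the gene's first probe (x axis). Filled blue points were measured in both channels, open points are surrogates and red points were called. Fgf4 shows 2 called peaks, and Fgfr2 a called peak beside a separate probe at 2.75 that was not called. Fgf8 has 1 lone probe at 2.91, and Fgf17 no probe above 0.84.

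In order of the highest set mean over spots measured in both channels, the genes ran Fgfr2 (2.75), Fgf4 (2.22), Fgf5 (1.54), Fgf8 (1.49), Fgfr3 (1.30), Fgf15 (0.64), and Fgf17 and Fgfr1 (0.32 each), where Fgf8 and Fgf17 come from the other array. Neighbours from Fgf5 to Fgfr3 differed by less than the SD over the probes of the Fgf5 set, and those from Fgf15 to Fgfr1 by less than that of the Fgf15 set. With all spots, the median of the 8 genes was 1.30, against 1.15 over all genes, but it lies between Fgfr3 and the surrogate set of Fgf8. Of the 259 measured probes of these genes, 39 (15.1%) had a log2 ratio of 1 or more, against 14.4% of all measured probes. With all spots these shares were 13.2%, against 16.9%, where surrogates made up 18.3% of the probes of these genes, against 41.2% of all probes.

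Log2 ratios on these arrays rose from moderate to high GC content of the probe, and many IP values were surrogates, so each gene was read in 2 further ways: over spots measured in both channels, and over those spots after subtracting the median of probes of like GC content. Fgf4 had a highest set mean of 2.22 over measured spots and 2.47 after GC subtraction, and Fgfr2 had 2.75 and 2.74, so that both were called each time. The Fgfr2 probe at 3.12 had 39.0% GC, where the median measured probe of its array stood at -0.34, and its value was 3.50 after subtraction. The Fgfr2 probe at 2.37 had 60% GC and came down to 1.72, and the mean GC content of that set was 45.8%. The upstream Fgf4 probes had 36.7% to 45.8% GC. After the subtraction, 1.13% of the genes of the array reached the value of Fgf4, and 0.553% reached that of Fgfr2. The GC-rich Fgf4 region after the start kept 1 called probe, the one at 3.00, whose value was 2.47 after subtraction, while its neighbour with 71.1% GC, where the array's median was 1.36, came down to 0.84.

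Fgf5 behaved otherwise. Its highest set mean was 1.54 with measured spots, where it was called, and 1.11 with the GC trend subtracted, where it was not, since its called probe had 71.1% GC and came down to 0.56. Fgf8 stood at 1.49 ± 1.47 over measured spots and 0.63 after GC subtraction, and its lone probe with 73.3% GC went to 1.82. Fgfr3 stood at 1.30 and 1.06, Fgf15 at 0.64 and 0.40, Fgf17 at 0.32 and 0.42, and Fgfr1 at 0.32 and 0.64. For Fgf5, Fgf8, Fgfr3, Fgf15 and Fgf17 the 2 values belong to different sets of probes. The Fgf5 set at 1.54, centred on its called probe, came down to 0.71. The Fgfr3 value of 1.30 is that of the set with 71.1% mean GC content. Its 1.06 ± 1.22 is that of a set with 42.8%, chr5:32782079-32783181, which holds the gene's lone high probe. Fgf8, Fgfr3, Fgf15, Fgf17 and Fgfr1 were called in neither way. The number of the 8 genes called was thus 3 with measured spots, where 13.7% of all genes were called, and 2 with the GC trend subtracted, where 13.3% were. On array 1, which holds these called genes, the shares were 16.3% and 19.1%, on array 2 they were 11.0% and 7.32%, and among all genes with as many probes they were 18.5% and 17.5%. The medians of the 8 genes were 1.40 and 0.85 in these 2 readings, against 0.98 and 0.85 over all genes.

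**Figure D2:**
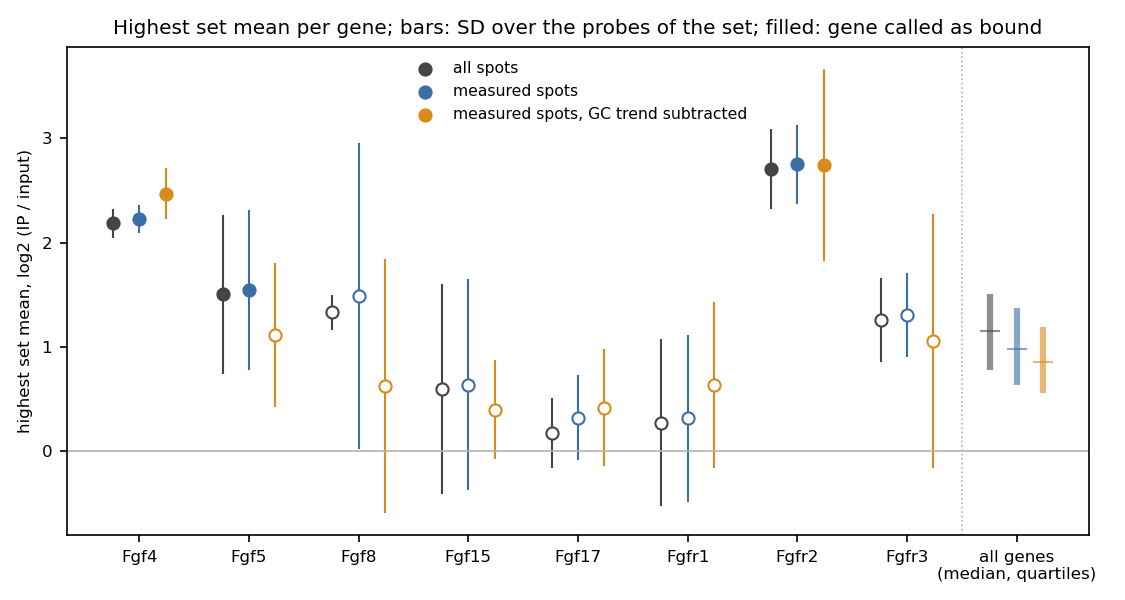
Highest set mean of each gene (y axis, log2 IP over input) in 3 readings: all spots, measured spots, and measured spots after subtraction of the GC trend. Bars are the SD over the 2 or 3 probes of the set, filled points are called genes, and the right column gives the median and quartiles of all genes. Fgf4 and Fgfr2 stay filled in all 3 readings, at 2.18 to 2.47 and 2.71 to 2.75, while Fgf5 is open at 1.11.

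**Figure D3:**
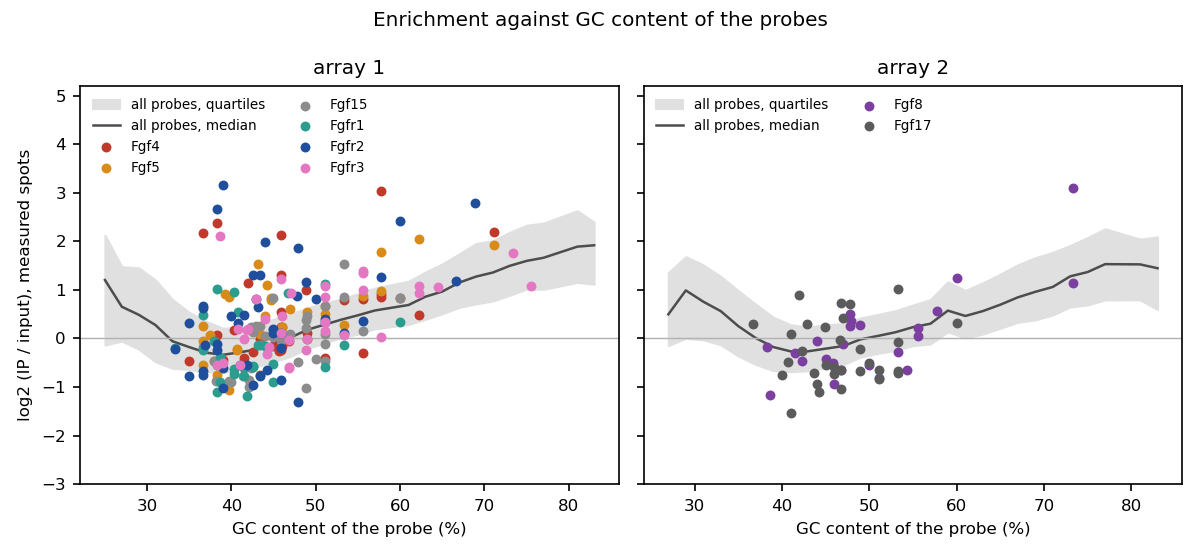
Log2 IP over input of the measured probes of each gene (y axis) against their GC content in percent (x axis), by array, with the median and quartiles of all measured probes in bins of 2%. The highest Fgfr2 probe and the upstream Fgf4 probes lie far above the line at low GC content, whereas the Fgf5 probe with 71.1% GC lies inside the band.

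The DNA letters of the Tcf/Lef family were then looked for in the probes, as CTTTGAA or CTTTGAT and as CTTTGTA or CTTTGTT, on both strands. They occurred in 10 of the 317 probes (3.15%), against 5.69% of all probes, and the strings differ only in their last letters. The median GC content was 44% for these 317 probes and 40.4% for all probes, and the shares were not matched for it. Fgf4 had 4 such probes of 35, of which 1 lay in its upstream called region and the other 3, with log2 ratios of -0.48, 0.14 and -0.79, lay further along the gene. Fgf8 had 3, and Fgf5, Fgf15 and Fgfr1 had 1 each, with log2 ratios between -0.65 and 0.11. None of the 60 Fgfr2 probes held the letters, and neither did any Fgf17 or Fgfr3 probe. CGGCGGC occurred in 2 of the 317 probes, shown above, against 0.151% of all probes. Probes cover only a part of the DNA between them, and the letters between probes were not read.

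For the position relative to transcription starts, probes were matched letter by letter to RefSeq promoter windows of build GRCm38.p6, which run from 250 bases before a start to 50 after it. Windows were in hand for 4 of the 8 genes: Fgf4, Fgf5, Fgfr2 and Fgfr3, the last with 2 starts. The 3 windows of the called genes are printed on the strand of the gene, with the bases of a matched array probe in capitals. None of these 3 holds the Tcf/Lef letters, which 16.9% of the 32851 windows of the table hold, and none holds CGGCGGC, which 10.1% hold. Of the 2 Fgfr3 windows, neither holds the Tcf/Lef letters and the first holds CGGCGGC. The Fgfr2 window has 43.7% GC, against 69.7% for Fgf4, 68.3% for Fgf5 and a median of 52.7% over all windows.
Fgf4, GRCm38.p6, + strand, chr7:144861136-144861435: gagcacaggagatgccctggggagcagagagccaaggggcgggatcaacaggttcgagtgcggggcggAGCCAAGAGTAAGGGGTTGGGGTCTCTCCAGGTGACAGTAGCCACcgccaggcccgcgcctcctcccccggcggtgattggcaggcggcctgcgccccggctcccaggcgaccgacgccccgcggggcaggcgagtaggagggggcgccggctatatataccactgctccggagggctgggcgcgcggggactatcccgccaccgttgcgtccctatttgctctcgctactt
Fgf5, GRCm38.p6, + strand, chr5:98253934-98254233: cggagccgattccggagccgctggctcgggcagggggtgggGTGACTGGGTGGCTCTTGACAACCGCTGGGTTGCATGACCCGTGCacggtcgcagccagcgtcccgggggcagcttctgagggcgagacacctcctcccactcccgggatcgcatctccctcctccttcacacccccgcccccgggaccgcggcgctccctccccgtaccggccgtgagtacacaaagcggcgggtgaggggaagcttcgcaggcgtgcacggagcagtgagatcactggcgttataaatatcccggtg
Fgfr2, GRCm38.p6, - strand, chr7:130266759-130267058: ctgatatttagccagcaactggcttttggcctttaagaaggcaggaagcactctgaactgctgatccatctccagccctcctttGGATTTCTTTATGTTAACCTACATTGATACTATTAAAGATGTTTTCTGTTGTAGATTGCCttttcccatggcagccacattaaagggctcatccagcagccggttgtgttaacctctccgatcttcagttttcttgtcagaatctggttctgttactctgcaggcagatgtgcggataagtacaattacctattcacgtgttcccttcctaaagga

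The matched probes placed the starts in the array's own coordinates, and distances are to the centre of a probe, negative upstream. The upstream region of Fgf4 was centred at -3394.5 bp, far from the start, and its other region lay at 213 and 366 bp, just after it. The Fgfr2 region was centred at 2030 bp downstream of the matched start, whose nearest probes on either side had -0.98 (a surrogate) and -0.82. In both genes the highest set thus lay away from the start. Fgf5 had its highest set at 134 bp and Fgfr3 at 118 bp from its first start. Fgf5 thus had raised probes around the start, from -187 bp (2.01) to 584 bp (1.49), with 0.63 between them at 249 bp. Further on, a surrogate at 951.5 bp read 2.16, and a measured probe at 1634.5 bp reached 1.07.

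Among the 10908 genes of both arrays with a matched start and a set, the highest set lay within 500 bp of the start in 32.5%, over 3000 bp upstream in 19.7% and over 1000 bp downstream in 23.1%. Across those genes the median log2 ratio was 0.27 in the first 500 bp after the start and 0.06 between -3500 and -3000 bp, so the upstream Fgf4 region lies where the typical probe is near 0. Between 2000 and 2500 bp, where the highest Fgfr2 probe lies, that median was -0.06. These positions depend on the starts in the table, and another start of Fgfr2 would give another distance. Exons and introns were not annotated in the array's build, so the regions are placed by distance alone.

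**Figure D4:**
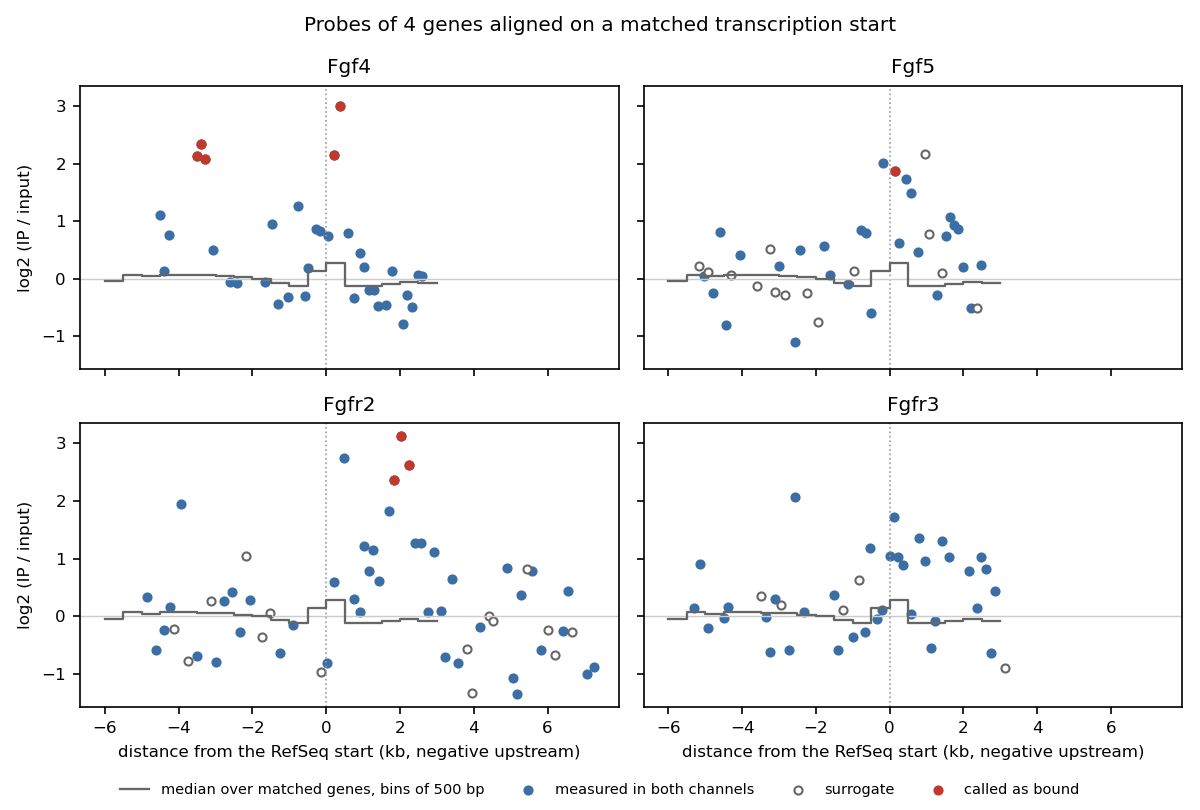
Log2 IP over input of the probes of the 4 genes with a matched RefSeq start (y axis) against the distance from that start in kb (x axis, negative upstream, along the direction of the gene). The grey steps give the median over all matched genes in bins of 500 bp, red points were called and open points are surrogates. The Fgf4 regions lie at -3394.5 bp and after the start, and the Fgfr2 region around 2030 bp.

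Fgf4 and Fgf15 belong to a cluster of ligand genes on chromosome 7 together with Fgf3. In the array's coordinates the Fgf3 probes end 15.7 kb before those of Fgf4, and those of Fgf15 begin 27.5 kb after them. Fgf3, with 43 probes, was not called: its highest set mean was 1.40, and its highest probe, at 2.67, had 75.6% GC. Of the 3 neighbours, Fgf4 was the only one called in any of the 3 readings.

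Of the other FGF ligand and receptor genes on the arrays, the number called was 2 of 20 over all spots, 4 over measured spots and 2 after subtraction of the GC trend. Fgf13, an intracellular relative of the ligands that binds sodium channels, was called in all 3 readings, with highest set means of 1.85, 2.03 and 1.33. Fgf9, a ligand of gonad and lung development, had 2.04, 2.23 and 1.31, and was not called in the last. Fgf18 (1.59) and Fgfrl1 (1.68), a receptor without a kinase domain, were called only with measured spots, and Fgf20 (1.63) only with the GC trend subtracted. The medians of these 20 genes were 1.19, 1.12 and 0.86, close to those of all genes (1.15, 0.98 and 0.85).

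Of 17 genes that carry the signal inside the cell, 4 were called with all spots, among them Plcg1, a phospholipase (2.21), Araf, a Raf kinase (2.12), and Hras1, a Ras gene (1.92). Measured spots gave 7 calls, with Sos1 (1.87), the exchange factor of Ras, Map2k2 (1.80), a Mek kinase, and the adaptor Frs2 (1.38) added. With the GC trend subtracted, Frs2 was the only one called, at 1.25, though it was not the highest. Araf (1.65), Map2k2 (1.58) and Sos1 (1.52) were among those that stood above it and were not called. The medians of the list were 1.37, 1.37 and 0.78, so that it stood above all genes in the first 2 readings and below them in the last.

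Of 14 feedback and target genes of FGF signalling, 3 were called in each reading, though not the same ones. Spred1, an inhibitor of Ras activation, was called in all 3, with 2.28, 2.32 and 1.73. Spry1 (1.79) and Spry2 (1.83), inhibitors of receptor tyrosine kinase signalling, were called in the first 2 readings. In their place Dusp4 (1.19), a phosphatase of Erk, and Etv5 (1.25), an Ets factor induced by FGF signalling, were called with the GC trend subtracted. Spred2, at 1.52 in that reading, stood above both and was not called. The medians were 1.11, 1.18 and 1.01. These list counts are set beside 13.0%, 13.7% and 13.3% of all genes called in the same 3 readings, and no list was tested.

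**Figure D5:**
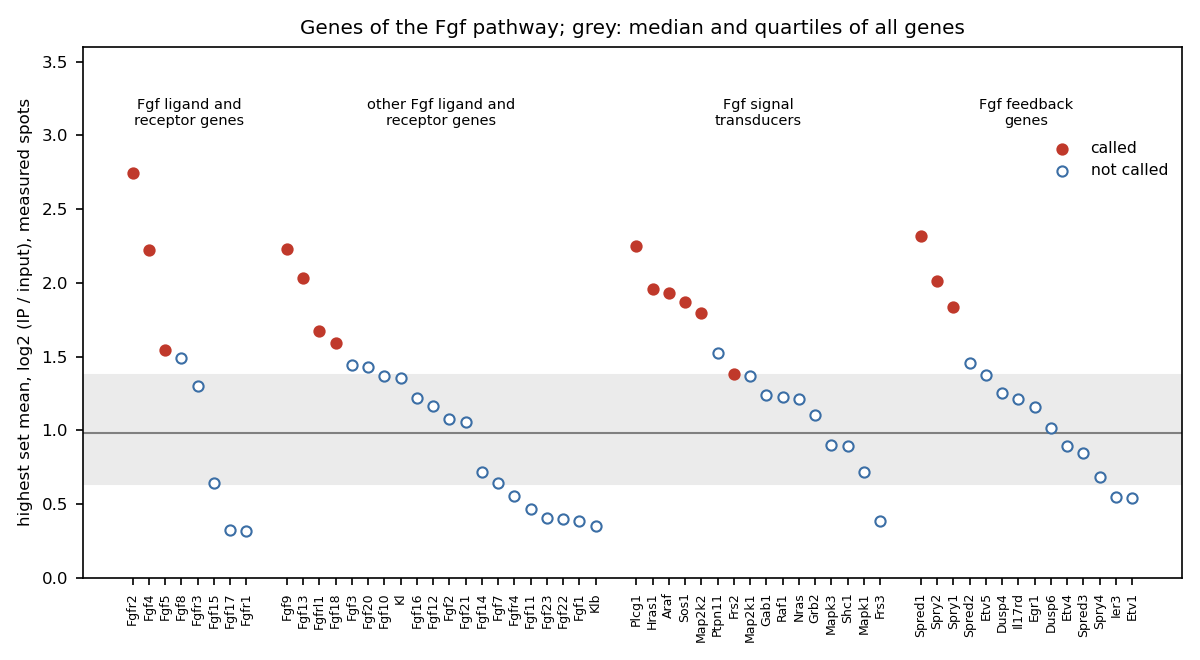
Highest set mean with measured spots (y axis, log2 IP over input) for the genes of the 4 FGF lists that are reported here, ordered by value within a list. Red points were called, open points were not, and the grey line and band give the median and quartiles of all genes. Fgfr2 at 2.75 is the highest point drawn, followed by Spred1 at 2.32.

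The genes of array 1 whose values in the 3 readings were most like those of a called gene were named from 8289 genes by the distance over those 3 log2 values. Wrn, a DNA helicase gene, was the nearest to Fgf4, with 2.19, 2.23 and 2.47 (distance 0.0092). Pkia, which encodes an inhibitor of protein kinase A, was the nearest to Fgfr2, with 2.69, 2.73 and 2.77 (distance 0.035). Zfp524, a zinc finger gene, was the nearest to Fgf5, with 1.50, 1.54 and 1.12 (distance 0.0090), and it was not called with all spots, although Fgf5 was: the call also depends on single probes.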

How the data were processed

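Tcf3 immunoprecipitate (Cy5) and input (Cy3) of E14 cells were compared on 2 Agilent promoter arrays with different probes. Per the file headers, the authors extracted spots with Agilent Feature Extraction 9.1.1.1, and deposited for each channel an intensity that had been background-subtracted, detrended and linearly dye-normalized, with a surrogate written for signals within background. A log10 ratio, Cy5 over Cy3, was deposited beside it from the same software, per the file headers. The build behind the coordinates: not given in the sources used here.

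Here log2 of processed Cy5 over Cy3 was centred on each array's median, after 9 and 18 non-uniform spots were left out of arrays 1 and 2. The scale of no enrichment, from values below the median, was 0.72 and 0.78. Sets held 2 or 3 probes within 1000 bp. A probe was called when its set mean had an upper-tail normal probability under 0.001, on the scale of sets of its size, provided that it was itself under 0.001 beside a neighbour under 0.1, or that the set held 2 probes under 0.005. The probabilities are a calling rule and no test, and the arrays were called separately. The IP signal was well above background at 69.1% and 48.1% of the probes of arrays 1 and 2, and the input signal at 97.8% and 92.0%. Surrogates stood in for the IP signal at 30.7% and 51.7%. Precision is limited by the number of arrays.

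The GC trend was the median log2 ratio of measured probes in bins of 2% GC. Where the trend was subtracted from all spots, the median was taken over all spots, surrogates included. Gene names were updated with a RefSeq table of GRCm38.p6: 12589 matched as current and 3940 as older symbols, and 568 did not match. Starts came from probes inside a RefSeq promoter window of the same gene. Where a window held at least 2 probes, they placed the start at the same position in 4782 of 4791 windows. The starts of Fgf4, Fgf5 and Fgfr2 each rested on 1 matched probe, so this check does not cover them.

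The genes and lists were chosen with earlier results of these data known, and the description of runs and the match to starts were chosen after the values were seen. Named genes are the 8 FGF genes, the called genes of each other list, Spred2 as a high uncalled gene of its list, and the gene most like each called one. Fgf3 was named for its place beside Fgf4. Some genes are not reported here. Alternatives changed the signal (deposited log10 ratio, or normexp with an offset of 50 in limma 3.58.1 under R 4.3.3), the intensity trend, the spots used, the set probability and the neighbour distance. Other steps used Python 3.11.15, pandas 2.3.3, scipy 1.17.1 and statsmodels 0.14.6. The caller was tested on simulated data.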

Additional observations from a re-analysis of the deposited data

How the results depend on the processing

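Fgf4 and Fgfr2 were called under the main setting and all 12 alternatives, with highest set means of 1.62 to 2.47 and 1.89 to 2.75. Fgf5 (1.11 to 1.55) was called in 11 of the 13 settings and not after the GC trend was taken off measured spots or with a set probability of 0.0001. Fgf8 (0.63 to 1.82) was called with normexp and with the intensity trend subtracted, and Fgfr3 (0.91 to 1.30) with normexp alone. These 2 settings also called the most genes in all, 8417 and 7422, against 2192 under the main setting. Fgf15, Fgf17 and Fgfr1 were called in none of the 13.

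The number of the 8 genes called moved from 3 to 5 with normexp, where 8417 of the 16887 genes with a set were called. It was 4 with the intensity trend subtracted, where 7422 of all genes were called. With a set probability of 0.0001 it was 2, where 1399 of all genes were called. Of the other ligands and receptors, called genes numbered 2 under the main setting, 4 with measured spots or without dim input, 5 with measured spots without CGGCGGC or a set probability of 0.01, 12 with normexp, 9 with the intensity trend subtracted, and 0 with the GC trend subtracted from all spots or a set probability of 0.0001. Of the transducers, 4 were called under the main setting, 7 with measured spots, with or without CGGCGGC probes, 1 with measured spots less the GC trend, 0 with all spots less that trend, and 13 with normexp or the intensity trend subtracted. Of the feedback genes, 3 were called under the main setting, 1 with the GC trend subtracted from all spots, a set probability of 0.0001 or measured spots without CGGCGGC, 12 with normexp and 10 with the intensity trend subtracted. Over all genes, 2192 calls became 1353 with the deposited log10 ratio, 8417 with normexp, 7422 with the intensity trend subtracted and 1399 with a set probability of 0.0001. They became 2805 with a set probability of 0.01, 2058 without dim input and 1803 with the GC trend subtracted from all spots. With measured spots they were 2233, with measured spots less the GC trend 2174, and with measured spots without CGGCGGC 2070. The cause of these shifts was not tested.

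Leaving out a replicate could not be done because each gene lies on 1 array. No paired analysis was possible because the 2 arrays carry different probes and both channels of an array are compared with each other. Weak IP signal limits array 2 in particular, where surrogates replace 51.7% of the IP values.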
